A study of Ovis aries with 7 samples.

Results

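The proteasome is the barrel-shaped protease that breaks down proteins tagged with ubiquitin. Its 20S core particle stacks rings of alpha subunits, which gate the entrance, on rings of beta subunits, some of which cut the protein chain. A 19S regulatory particle on the end of the barrel recognises the ubiquitin tag, removes it and threads the protein in. In early embryos it is known for clearing proteins inherited from the egg and for driving mitosis by degrading cyclins. The genes described here are the rows of a sheep expression table whose symbol starts with PSM, a letter from A to G and a number. There are 50 of them among 31304 rows, of which 16526 carry a gene symbol. By nomenclature 48 encode subunits, activators, an inhibitor or assembly chaperones. PSMC3IP, a factor of meiotic recombination, and PSME3IP1, a protein that binds the activator PSME3, match by spelling and are given apart.

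Embryos of the sheep, Ovis aries, were made by in vitro fertilization (IVF) and collected at the 8-cell stage. PolyA RNA was amplified and read by Smart-seq2, a full-length method for low input, in 3 IVF libraries named replicates 1, 2 and 3. The design also has 4 libraries from cloned embryos, obtained by somatic cell nuclear transfer (SCNT), in which a somatic nucleus takes the place of the egg's own. No column could be matched to an SCNT sample by name, since 4 columns bear a name found in no sample label. The SCNT libraries were therefore not analysed here, and no SCNT value or difference is given. The labels give no breed, donor cell, sire or number of embryos per library, and do not tie a library to a trial. Levels are TPM (transcript abundance with a fixed sum per library), a scale per gene length and library total, so levels of different genes in a library can be set side by side. Means are given ± SD over the 3 libraries, a spread that may be partly technical. TPM keeps no read depth, so no counting interval or detection floor is given.

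Markers of the labelled stage were present. Of 12 embryo and oocyte markers, 11 were in the table and 9 had at least 1 TPM in every library, with summed levels of 1274 to 2645 TPM. ZAR1 and NLRP5 were below 1 TPM in replicates 2 and 3. Summed levels over libraries were 12.7 to 19.1 TPM for 10 cumulus and granulosa markers, 11.3 to 18.9 for 8 fibroblast markers and 204 to 246 for 7 spermatid and sperm markers, where SPA17 made up nearly the whole sum. PTX3 and FOXL2 of the cumulus list and PRM1 of the sperm list were listed at 0 throughout. Replicate 2 stood farthest from the others by number of genes, as described at the end.

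Proteasome transcripts were plentiful in IVF embryos, and their levels differed by the part of the machine they encode. Together the 50 genes took 1.41, 1.47 and 1.47% of all TPM in replicates 1, 2 and 3, a mean of 1.45 ± 0.0375%. At least 1 TPM was reached in every library by 46 of the 50, against 49.0% of the 16526 symbols. By mean level 47 of 50 lay above the median symbol, which stood at 1.58 TPM. Of the 50, 5 ranked among the 100 most abundant symbols and 23 among the 1000 most abundant. The 4 genes that missed 1 TPM in some library were PSMB6, PSMB8, PSMB10 and PSMB11, which are all beta subunits.

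**Figure D1:**
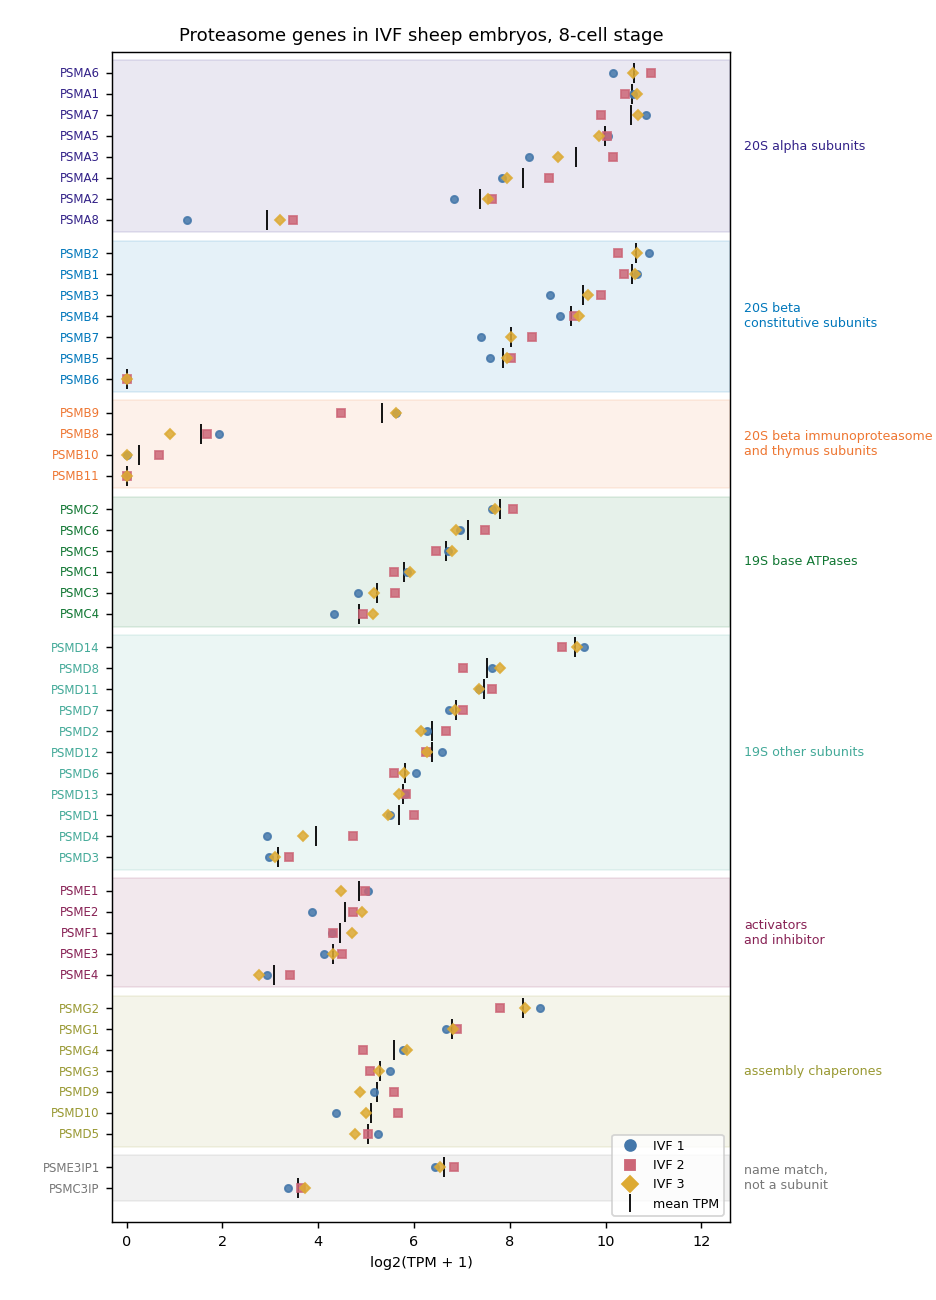
Level of each of the 50 genes as log2(TPM + 1) on the horizontal axis, grouped by role, with a symbol for each IVF library and a tick at the mean TPM. PSMB2, PSMA6, PSMB1, PSMA1 and PSMA7 of the core lie farthest to the right. PSMD14 of the 19S particle lies among the core genes, and PSMB6, PSMB8, PSMB10 and PSMB11 lie farthest to the left.

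The 20S alpha subunits were among the most abundant members. Their median was 700.1, 1000.4 and 724 TPM in replicates 1, 2 and 3, a mean of 808 ± 167 over 8 genes. PSMA6 had 1141, 1974 and 1526 TPM in replicates 1, 2 and 3 (1547 ± 417). PSMA1 had 1512, 1353 and 1615 TPM (1493 ± 132) and was among the steadier of the abundant members. PSMA7 had 1830.3, 957 and 1628 TPM (1472 ± 457), with replicate 2 lowest. The ranges of these 3 genes overlapped, so their order is not settled by these libraries. PSMA5 averaged 1015 ± 68.0 TPM and PSMA4 averaged 308 ± 124.

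PSMA3 was the least even of the abundant alpha genes, at 337, 1147 and 512 TPM in replicates 1, 2 and 3 (665 ± 426). In the ARS-UI_Ramb_v3.0 gene table its whole span lies inside ARMH4, which averaged 11.3 ± 0.550 TPM and did not share its pattern, at 11.9, 10.8 and 11.3 TPM in the same order. The sources used here do not give how the authors assigned reads to genes that share a span. PSMA2 was the lowest alpha subunit of the standard ring, at 113, 198 and 186 TPM (166 ± 46.1), below the lowest PSMA4 library in each case. Within the standard alpha subunits PSMA4 over PSMA2 was the only step between neighbours in the order whose library ranges did not overlap.

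PSMA8, the alternative alpha subunit that replaces PSMA7 in male germ cells of mammals, was scarce. It had 1.38, 10.2 and 8.20 TPM in replicates 1, 2 and 3 (6.58 ± 4.61), and replicate 1 was the lowest. PSMA7 exceeded it by 7.83 ± 1.61 on the log2(TPM + 1) scale, and was higher in 3 of 3 libraries. With a pseudocount of 0.1 the difference was 8.14, and with 5 it was 7.04. PSMA8 also lies wholly inside another gene of the reference table, SS18, which was at 27.4, 46.9 and 32.6 TPM. Both genes were highest in replicate 2 and lowest in replicate 1; whether reads of SS18 entered the PSMA8 value was not tested.

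The constitutive beta subunits fell into a high and a low set. PSMB2 was the most abundant gene of all 50, at 1909.9, 1224 and 1611 TPM in replicates 1, 2 and 3 (1582 ± 344), rank 74 among symbols. PSMB1 had 1606, 1345 and 1565 TPM (1505 ± 140.2). The ranges of PSMB2 and PSMB1 overlapped, and both lay above every library of the rest of the ring. PSMB3 had 456, 961 and 794 TPM (737 ± 257) and PSMB4 had 525, 649 and 692 TPM (622 ± 86.6), with overlapping ranges. All of these are non-catalytic members of the ring.

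The catalytic beta subunits were lower. PSMB5, which carries the chymotrypsin-like activity, had 192, 259.8 and 246 TPM in replicates 1, 2 and 3 (233 ± 35.5). PSMB7, which carries the trypsin-like activity, had 167, 352 and 259 TPM (259 ± 92.3). In each library the higher of these lay below the lowest of PSMB1 to PSMB4, which was 2.37, 1.84 and 2.67 times as high in replicates 1, 2 and 3. This comparison was chosen after the values were seen. PSMB6, the caspase-like subunit, was listed at 0 in all 3 libraries. In the reference table it lies wholly inside C11H17orf114, which averaged 0.234 ± 0.319 TPM. PSMA3 and PSMA8 also lie wholly inside another gene and were above 0. Whether the shared span bears on the 0 of PSMB6 was not tested, and the 0 is not read as absence of this subunit.

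Subunits of the immunoproteasome, which take the place of the catalytic beta subunits in immune cells and under interferon, were unequal. PSMB9 had 48.4, 21.3 and 48.7 TPM in replicates 1, 2 and 3 (39.4 ± 15.8), so replicate 2 was lowest. PSMB8 had 2.80, 2.18 and 0.875 TPM (1.95 ± 0.982). PSMB10 was listed at 0, 0.590 and 0 TPM, and PSMB11, the subunit of the thymus, at 0 in each library. PSMB9 was thus the sole member of this group at 1 TPM or more throughout.

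Set against the standard subunit it replaces, PSMB5 exceeded PSMB8 by 6.36 ± 0.68 on the log2(TPM + 1) scale, with 5.67, 6.36 and 7.04 in replicates 1, 2 and 3. With a pseudocount of 0.1 this difference was 6.95, and with 5 it was 5.09. PSMB7 was higher than PSMB10 in 3 of 3 libraries, but PSMB10 was at 0 in 2 of them, so the pseudocount sets the size of the difference. It was 7.74 ± 0.32 with a pseudocount of 1, 10.35 ± 1.21 with 0.1 and 5.61 with 5. No fold is given for PSMB6 against PSMB9, or for PSMB5 against PSMB11, because PSMB6 and PSMB11 were at 0. Of 8 planned pairs 6 could be tested, by an exact two-sided sign-flip permutation test. With 3 libraries its smallest p is 0.25, which 5 pairs reached (0.30 after Benjamini-Hochberg adjustment over 6), so no pair could pass 0.05.

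In the reference table PSMB8 and PSMB9 lie on either side of TAP1, which carries peptides to class I molecules, and PSMB8 is also next to TAP2. PSMB9 exceeded its neighbour PSMB8 by 3.75 ± 0.96 on the log2(TPM + 1) scale, in 3 of 3 libraries, a contrast chosen after the values were seen. With a pseudocount of 0.1 it was 4.31, and with 5 it was 2.61. TAP1 had 5.09, 2.80 and 2.11 TPM in replicates 1, 2 and 3, and TAP2 had 0.120, 0.0416 and 0.0150 TPM. The interferon-linked regulators IRF1 and NLRC5 averaged 13.4 ± 4.41 and 0.331 ± 0.105 TPM. The 12 leukocyte markers summed to 13.1, 15.9 and 13.2 TPM in replicates 1, 2 and 3. CD3D, CD14, CD68 and MS4A1 were listed at 0 throughout, and PTPRC, the pan-leukocyte marker, did not exceed 0.154 TPM. CSF1R and CD3E were at 1 TPM or more in every library, with CSF1R at 3.87, 4.95 and 1.99 TPM. In bulk libraries fewer cells of a type and less RNA per cell cannot be told apart.

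**Figure D2:**
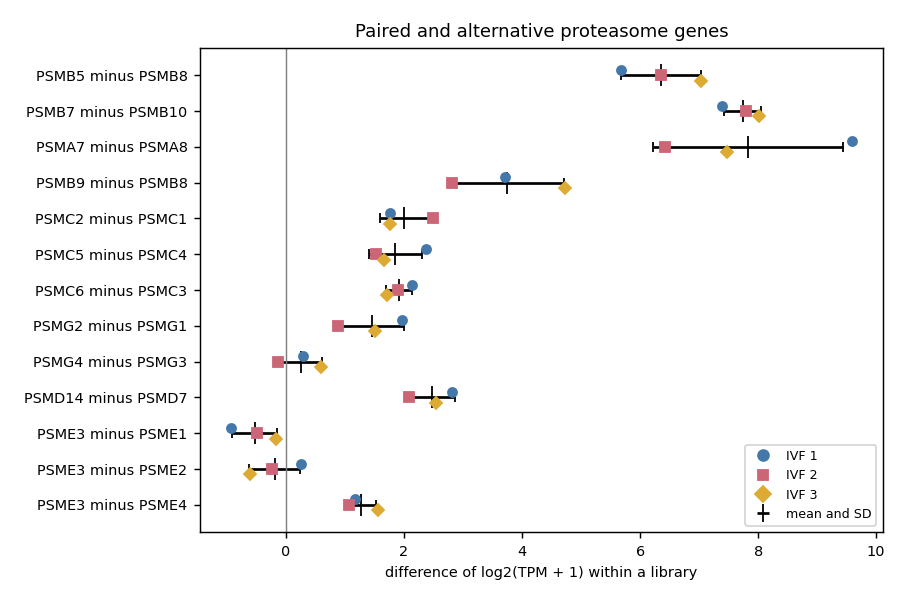
Difference of log2(TPM + 1) within a library for 13 pairs of proteasome genes, first gene minus second, with a symbol per IVF library and the mean with its SD. PSMB5, PSMB7 and PSMA7 lie 6 log2 units or more above their alternatives on average at this pseudocount of 1. The pseudocount sets the size for PSMB7 and moves it for PSMB5 and PSMA7. With a pseudocount of 5, PSMB5 lies 5.09 above PSMB8. The 3 ATPase pairs lie near 2, and PSME3 minus PSME2 and PSMG4 minus PSMG3 change sign between libraries.

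Core genes were at higher levels than genes of the 19S particle. The 14 standard core genes, with PSMB6 entered at 0, had medians of 491, 959 and 743 TPM in replicates 1, 2 and 3, a mean of 731 ± 234. The 6 base ATPases of the 19S particle, which unfold the protein and open the gate, had a median of 80.1, 67.0 and 85.1 TPM, a mean of 77.4 ± 9.35. The 11 other 19S subunits had a median of 73.7 ± 3.34 TPM. The core median was 6.42, 12.8 and 10.6 times the median of the 17 19S genes in replicates 1, 2 and 3 (9.96 ± 3.26). Without PSMB6 and PSMA3, which lie inside another gene, it was 11.9 ± 1.31. As sums, core genes took 5.31, 5.86 and 5.78 times the TPM of the 19S genes (5.65 ± 0.297). Among core genes listed above 0 none averaged under 100 TPM, whereas 10 of 17 19S genes did. The ranges still met, since PSMC2, PSMD8, PSMD11 and PSMD14 averaged more than PSMA2, the lowest core gene above 0. The ratio was computed after the values were seen. Across the 48 genes above 0, the Spearman coefficient of gene span in the reference table with mean TPM was 0.23, a description with no p. Transcript length was not used here, and its part in the level was not tested.

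**Figure D3:**
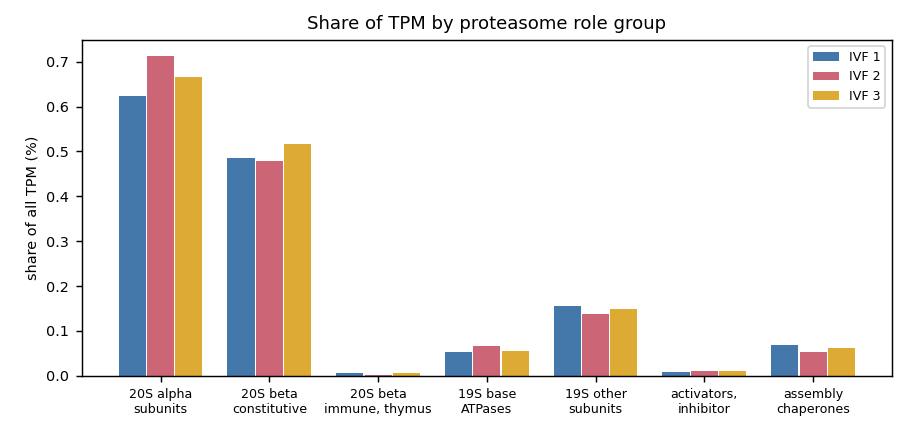
Share of all TPM, in percent, taken by each role group in each IVF library (bars, 1 per library). The alpha and constitutive beta groups together hold most of the total in each library, and the immunoproteasome and thymus group is close to 0.

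Base ATPases ranged 8.05-fold from the highest mean to the lowest, although each is present once in the ring. PSMC2 had 196, 267 and 205 TPM in replicates 1, 2 and 3 (223 ± 38.7) and stood above every library of the other ATPases. PSMC6 averaged 139 ± 33.9 TPM, PSMC5 100.2 ± 12.2 and PSMC1 54.5 ± 6.82, and the ranges of PSMC2, PSMC6, PSMC5 and PSMC1 did not overlap between neighbours. PSMC3 had 27.3, 47.3 and 34.7 TPM (36.5 ± 10.1) and PSMC4 had 19.2, 29.6 and 34.2 TPM (27.7 ± 7.69), with overlapping ranges. In the reference table PSMC4 shares 35.1% of its span with LOC132657692 and 37.7% with LOC105608813. Whether this bears on its level was not tested.

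ATPases enter the ring as dimers, and within each dimer the same partner was higher in 3 of 3 libraries. PSMC2 exceeded PSMC1 by 2.01 ± 0.42 on the log2(TPM + 1) scale. PSMC5 exceeded PSMC4 by 1.85 ± 0.45, and PSMC6 exceeded PSMC3 by 1.91 ± 0.21. These dimers were set side by side after the values were seen, and no test was made.

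Of the remaining 19S subunits, PSMD14, the deubiquitinase that strips the ubiquitin chain, stood out. It had 746, 547 and 672 TPM in replicates 1, 2 and 3 (655 ± 100.4), above every library of the next subunit, PSMD8 (183 ± 48.3). It exceeded PSMD7, the inactive partner it binds in the lid, by 2.48 ± 0.38 on the log2(TPM + 1) scale. PSMD7 itself averaged 116 ± 12.1 TPM. The lid scaffold subunits PSMD11, PSMD12, PSMD6 and PSMD13 averaged 175 ± 19.2, 82.1 ± 11.6, 55.3 ± 9.09 and 53.9 ± 2.96 TPM. PSMD13 varied least of all members above 0, with a coefficient of variation of 5.50%.

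The large base scaffolds PSMD2 and PSMD1 averaged 82.3 ± 16.0 and 50.2 ± 11.4 TPM. The ubiquitin receptor PSMD4 was low and uneven, at 6.59, 25.3 and 11.8 TPM in replicates 1, 2 and 3 (14.5 ± 9.65). Its range lay below that of PSMD1, the next subunit above it. ADRM1, another ubiquitin receptor of the base that the name rule does not take, was steadier at 39.7, 43.1 and 40.5 TPM (41.1 ± 1.78). PSMD3, a lid subunit, was the lowest 19S gene at 6.80, 9.54 and 7.61 TPM (7.99 ± 1.41), and its range overlapped that of PSMD4.

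Activators that dock on the core in place of the 19S particle were low. As a group with the inhibitor their median was 16.3, 21.4 and 21.4 TPM in replicates 1, 2 and 3 (19.7 ± 2.94). PSME3, the nuclear activator, had 16.3, 21.4 and 18.9 TPM (18.9 ± 2.55). PSME1, which forms an interferon-linked ring with PSME2, had 32.0, 30.5 and 21.4 TPM (28.0 ± 5.74), and PSME2 averaged 22.7 ± 8.19. PSME4, the activator known for histone turnover, was lowest at 6.67, 9.71 and 5.74 TPM (7.37 ± 2.07). PSMF1, described as an inhibitor of the core, averaged 20.8 ± 3.71 TPM.

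PSME3 lay below PSME1 by a log2(TPM + 1) difference of -0.53 ± 0.38, in 3 of 3 libraries. Its difference from PSME2, -0.20 ± 0.43, was smaller than its spread (exact p = 0.75), and the sign differed between libraries. PSME3 exceeded PSME4 by 1.27 ± 0.26 in 3 of 3 libraries, and of the steps in this group PSME3 over PSME4 was the one whose ranges did not overlap.

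Among the chaperones that assemble the proteasome, PSMG2 and PSMG1 stood above the others. PSMG2, which with PSMG1 starts the alpha ring, had 393, 220.1 and 317 TPM in replicates 1, 2 and 3 (309.9 ± 86.5). PSMG1 had 100.1, 119 and 111 TPM (110.0 ± 9.47), and PSMG2 exceeded it by 1.45 ± 0.54 on the log2(TPM + 1) scale in 3 of 3 libraries. PSMG4 and PSMG3, the next dimer in the pathway, averaged 46.9 ± 14.9 and 38.2 ± 5.60 TPM, and their difference of 0.25 ± 0.36 was smaller than its spread. The base chaperones PSMD9, PSMD10 and PSMD5 averaged 36.7 ± 9.63, 33.5 ± 15.2 and 31.9 ± 5.43 TPM, with overlapping ranges. PSMD5, the lowest by mean, had 37.2, 32.1 and 26.3 TPM in replicates 1, 2 and 3. PSMD10 was the least even of the chaperones, at 19.8, 49.9 and 31.0 TPM.

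Genes of the pathway outside the name rule were mostly present too. Of a list of 30 associated proteins, shuttles and regulators, 29 were in the table and 27 had at least 1 TPM in every library. Over all 16526 symbols that share was 49.0%. The 50 genes of the name rule had a median of 68.1 ± 2.96 TPM, against 13.3 ± 3.61 TPM for this list. POMP, the chaperone that completes the beta rings, was highest at 479, 487 and 532 TPM in replicates 1, 2 and 3 (499 ± 28.3). ZFAND5, which stimulates the proteasome, averaged 281 ± 104 TPM, and the proteasome-binding protein PITHD1 averaged 274 ± 123. AKIRIN2, which brings proteasomes into the nucleus, averaged 221 ± 28.4, and the unfolding ATPase VCP 166 ± 6.05. NFE2L1, the transcription factor that raises proteasome genes when the protease is short, was at 8.22, 15.2 and 11.7 TPM. TAP2 and NLRC5 were the 2 genes below 1 TPM. SEM1, a small lid subunit, was not analysed here.

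The genes that match by spelling were expressed as well. PSME3IP1 had 85.6, 114 and 92.6 TPM (97.4 ± 14.8), and PSMC3IP had 9.29, 11.5 and 12.1 TPM (10.98 ± 1.49). Neither is counted in a role group.

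The order of the members was shared by the libraries. Over the 47 genes above 0 in each library, the Spearman coefficient of replicate 3 across genes was 0.988 with replicate 1 and 0.963 with replicate 2. That of replicate 2 with replicate 1 was 0.959. Since genes are no replicates, these carry no p. A mean of 5 TPM or more was reached by 46 members, and their median coefficient of variation was 20.0%, against 27.8% over the 5765 symbols at such a mean. These sets were not matched by level, and 23 members ranked among the 1000 most abundant symbols. Whether level bears on the lower variation was not tested.

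Replicate 2 differed from the others in a few members. Set against the average log2(TPM + 1) of replicates 1 and 3, 3 of the 46 were at least 2-fold higher in replicate 2, against 10.4% of the 5765 symbols. They were PSMA3, PSMD4 and PSMA8, with differences of 1.46, 1.42 and 1.25. At least 2-fold below was 1 member, PSMB9 at -1.15, against 3.80% of symbols. The median member lay 0.22 higher in replicate 2 and the median symbol 0.16 higher, so the members stood 0.068 above the symbols. The alpha subunits had a median difference of 0.52, ranging from -0.85 for PSMA7 to 1.46 for PSMA3, and 6 of 8 were higher in replicate 2. Higher in replicate 2 were also 31 of the 46 members and 58.9% of the 5765 symbols. Embryo and oocyte markers summed to 2645 TPM in replicate 2, against 1274 and 1296 in replicates 1 and 3, and their part in these differences was not tested.

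In replicate 1 no member lay at least 2-fold above the other libraries, against 5.95% of symbols, and 3 lay at least 2-fold below, against 5.36%. These were PSMA8 at -2.09, PSMD4 at -1.27 and PSMA3 at -1.18, the genes that were high in replicate 2. These contrasts share libraries and are no separate evidence. In replicate 3 no member was 2-fold apart in either direction, against 0.416% of symbols above and 1.87% below. The members' counts are near the shares of all symbols, and with 1 library on a side there is no test.

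**Figure D4:**
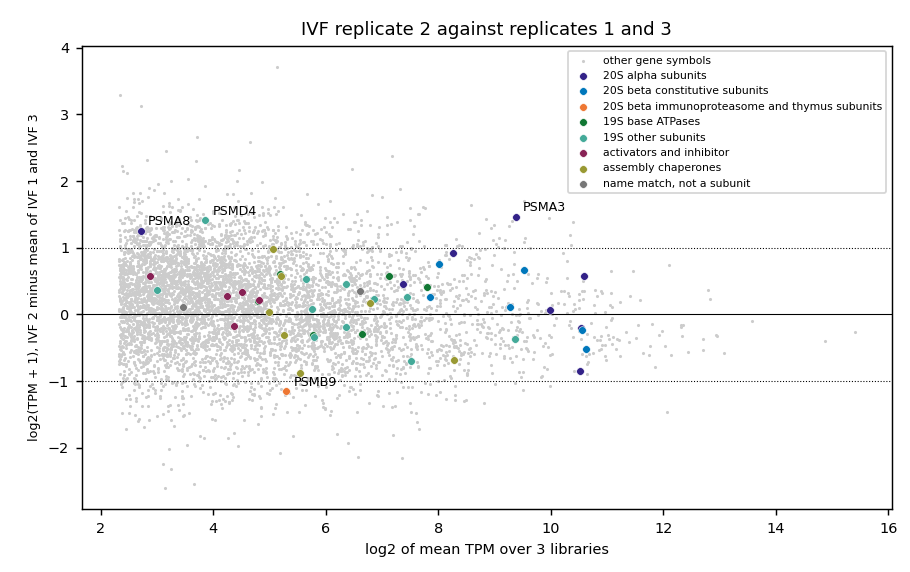
Log2(TPM + 1) of IVF replicate 2 minus the mean of replicates 1 and 3 against the log2 of mean TPM, for gene symbols with a mean of at least 5 TPM (grey) and proteasome genes (coloured by role). Dotted lines mark a 2-fold difference, passed by PSMA3, PSMD4 and PSMA8 above and PSMB9 below.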

How the data were processed

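Per the deposited table, TPM values were given for 31304 rows, with a sum of 1000000 in each column used. Reads of 150 nucleotides, from cDNA amplified for 20 cycles, went through fastp 0.23.4 (trimming) and HISAT2 2.2.1 (alignment) before the authors made the TPM, per the submitters' processing notes and the labels' protocols. Not given in the sources used here were the sheep build, annotation, counting tool and treatment of multi-mapping reads. Columns were assigned by name: 3 match IVF titles, while 4 per-sample columns match no label and were left out. Members were all 50 rows of the name rule, and role groups follow nomenclature. Members, lists and comparisons were chosen with earlier results of these data known. Every member may be named, and values per library were given for beta genes, extremes of each group, and genes at 0 or 2-fold apart. Detection was 1 TPM, the pseudocount 1, and a mean of 5 TPM was required for differences between libraries. The step that counts such differences was run on simulated data with planted 4-fold changes and little noise, in genes of at least 50 TPM. That setting is easier than the data, so calls near 2-fold or at low levels were not checked by it. All 50 symbols matched the ARS-UI_Ramb_v3.0 gene table, used for neighbours and shared spans, with no coordinates since the builds may differ. Values of some listed genes are not reported here. Alternatives were detection limits, pseudocounts, scalings and leaving out each library. Tools were scipy 1.17.1, pandas 2.3.3, numpy 2.4.6 and matplotlib 3.10.9 under Python 3.11.15.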

Additional observations from a re-analysis of the deposited data

How the results depend on the processing

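No paired analysis was possible because columns were matched by name for the IVF group alone. Without mitochondrially encoded and ribosomal protein genes each level rises by construction: medians became 979 TPM for alpha, 725 for constitutive beta, 93.4 for base ATPases, 89.1 for other 19S subunits, 23.8 for activators and inhibitor and 51.9 for chaperones, and the members' share became 1.75%. Under median-of-ratios scaling, the median member in replicate 2 lay at -0.047 and the median symbol at -0.11 (log2), against 0.22 and 0.16 as deposited, so members stood 0.065 above symbols, against 0.068 as deposited, and members at least 2-fold below numbered 3 in place of 1. At a mean of at least 50 TPM, 1 member was 2-fold above and 0 below, fewer genes being counted. There the median of 29 members lay at 0.17 and the median symbol at -0.045, so members stood 0.22 above symbols. With no filter on low values they stood 0.17 above. The size of this gap thus depended on the filter. With each library left out, PSME3 minus PSME2 ranged from -0.42 to 0.010, positive without replicate 3. Of 78 values with a library left out that was the 1 that turned. For levels, the share and the 20S core to 19S ratio the outcome was fixed in advance. Leaving out 1 of 3 libraries cannot move a mean by its SD, the limit used. Nor can a pair with the same sign in 3 of 3 libraries turn. That count is therefore no support for these results. Of 61 other alternatives 50 kept within the spread between libraries, their sign or, for counts, 1.5 times. Part of these outcomes were also fixed in advance. Another pseudocount cannot turn a pair with the same sign in 3 of 3 libraries. A minimum mean of 5 TPM removed no gene above 0 from the 20S core or the base ATPases. The count of 50 is therefore no support for these results either. The 20S core to 19S ratio and 7 pairs of genes were added after seeing the data. PSMB6 against PSMB9 and PSMB5 against PSMB11 have no value under any setting, having a gene at 0. With no read depth, a low value may reflect few sampled molecules.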
